A study of Homo sapiens with 20 samples.

Results

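Contacts under 100 kb in Poised Enhancer Capture Hi-C are pairs of a captured DNA fragment, the bait, and a nearby fragment that was not itself captured. They were taken as all contacts with both ends on 1 chromosome, an unbaited other end and a distance under 100 kb, and there were 28350 of them among 179907 contacts with an unbaited other end on the same chromosome and 766138 listed contacts in all. Each listed contact had an interaction score of 5 or more in at least 1 of 10 conditions, and that same threshold decided whether a condition was counted as having called it. The score is that of CHiCAGO, a caller for capture Hi-C that sets the contact of 2 fragments against the background at their distance.

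Definitive endoderm (DE) and neuroectoderm (NE) were differentiated out of HNES1 cells that had completed the transition at day 14. The DE medium held activin A throughout, first with the GSK3 inhibitor CHIR99021 and BMP4 and then with the BMP pathway inhibitor LDN193189. H9 is another human embryonic stem cell line and was grown in the primed state. HNES1 is a human embryonic stem cell line kept in the naive state, and it was sampled as naive cells and at day 1, day 3, day 5, day 7, day 10 and day 14 after transfer to medium with the tankyrase inhibitor XAV939. The naive medium held that inhibitor too, together with LIF, the MEK inhibitor PD0325901 and the protein kinase C inhibitor Gö6983. NE cells were cultured for 10 days with A8301 and LDN193189, inhibitors of the activin and BMP pathways, and sorted as CD56 positive and EpCAM negative. Each condition had 2 libraries, 20 in all, but only 1 score column that pools both, so replicate spread was unknown and conditions could not be tested against each other. All HNES1 conditions derive from that line alone, and H9 differs from day 14 in both cell line and culture. The scores hold no expression values, so the labelled cell types could not be checked against markers. Read depth was unknown, and whether it moved the number of calls was not tested.

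Poised enhancers are regulatory elements that in pluripotent cells carry the Polycomb mark H3K27me3 together with features of enhancers, and that often become active in a later lineage. They commonly lie close to genes of developmental transcription factors, among them the HOX clusters, which set position along the body axis and are classic Polycomb targets. Short contacts can join such elements to genes and CpG islands of the same neighbourhood.

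Fragments in this assay end at GATC, the site of the enzyme DpnII. The promoters below are shown because their starts lie at the ends of contacts that the results turn on. NHP2 lies at the other end of a contact called in nearly every condition, GIMAP2 in the bait of many short contacts, HOXA2 and the inner start of HOXA10 in frequently contacted other ends, and HOXA9 in a bait. The sequences are those of RefSeq on GRCh38.p14, 250 bases before to 50 after the start, 5′ to 3′ on the gene's strand, and capitals mark GATC. They cover chr5:178153836-178154135 on the minus strand (NHP2), chr7:150685456-150685755 on the plus strand (GIMAP2) and, all on the minus strand, chr7:27102634-27102933 (HOXA2), chr7:27174271-27174570 (HOXA10) and chr7:27165488-27165787 (HOXA9).
NHP2: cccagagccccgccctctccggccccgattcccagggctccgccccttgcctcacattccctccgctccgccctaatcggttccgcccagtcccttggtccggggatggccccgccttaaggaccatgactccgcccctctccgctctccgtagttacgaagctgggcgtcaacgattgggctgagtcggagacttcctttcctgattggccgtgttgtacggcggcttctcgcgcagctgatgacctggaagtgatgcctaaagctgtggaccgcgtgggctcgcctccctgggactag
GIMAP2: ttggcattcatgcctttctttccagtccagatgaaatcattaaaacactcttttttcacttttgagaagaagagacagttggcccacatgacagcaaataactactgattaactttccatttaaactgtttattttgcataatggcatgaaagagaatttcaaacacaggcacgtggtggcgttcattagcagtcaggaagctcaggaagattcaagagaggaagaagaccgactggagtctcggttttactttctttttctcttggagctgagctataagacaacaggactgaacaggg
HOXA2: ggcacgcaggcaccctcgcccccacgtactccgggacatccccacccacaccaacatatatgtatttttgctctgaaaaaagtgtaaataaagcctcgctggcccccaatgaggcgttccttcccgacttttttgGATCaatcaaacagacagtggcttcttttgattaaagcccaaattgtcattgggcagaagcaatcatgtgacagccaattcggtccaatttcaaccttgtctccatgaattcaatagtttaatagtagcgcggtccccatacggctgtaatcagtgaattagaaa
HOXA10: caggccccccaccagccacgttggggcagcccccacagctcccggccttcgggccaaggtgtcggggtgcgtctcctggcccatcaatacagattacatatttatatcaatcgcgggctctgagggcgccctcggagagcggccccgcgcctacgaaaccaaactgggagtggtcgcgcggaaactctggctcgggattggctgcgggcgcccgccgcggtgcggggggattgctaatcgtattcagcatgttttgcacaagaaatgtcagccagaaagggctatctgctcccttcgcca
HOXA9: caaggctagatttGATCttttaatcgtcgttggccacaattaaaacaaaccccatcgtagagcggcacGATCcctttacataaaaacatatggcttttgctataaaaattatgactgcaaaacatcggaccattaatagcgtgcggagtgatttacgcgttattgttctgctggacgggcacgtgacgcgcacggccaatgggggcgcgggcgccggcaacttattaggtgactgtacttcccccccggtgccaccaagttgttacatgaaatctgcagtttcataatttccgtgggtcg

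The letters GATC, which read the same on both strands, occur once in the HOXA2 window and at 2 positions in the HOXA9 window. None of the other 3 windows holds them, so their promoters are not cut there. Of all 22105 protein-coding promoter windows in the RefSeq table, 40.0% held GATC. Genes with a start in an other end of a short contact had 1633 windows, counted over all their starts, and 44.3% of these held it. The CG dinucleotide was counted 25 times in the NHP2 window, 25 in that of HOXA10, 22 in HOXA9, 11 in HOXA2 and 4 in GIMAP2. The median was 18 in those 1633 windows and 21 over all windows, and these counts describe the windows only. Of the 36 genes looked up in the table for short contacts, 21 matched.

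The short contacts came off 11467 of the 28903 baits (39.7%) and reached 19924 distinct other ends. Baits were single restriction fragments with a median length of 598 bp, and other ends were wider intervals with a median of 5248 bp. Distances lay between 2365 and 99999 bp with a median of 67100.5 bp, and 14079 other ends lay at the higher coordinate and 14271 at the lower. A single short contact was listed for 5526 baits, whereas 266 baits had 10 or more and the most for 1 bait was 28. At the limit, the 3 contacts just inside had their highest scores at 6.11, 6.55 and 7.41, and the 3 just outside at 5.71, 7.02 and 5.23.

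DE and NE had the most called short contacts. DE had 5270 and NE 5490, H9 had 3874, and the HNES1 stages had 2752 in naive cells, 2821 at day 1, 3813 at day 3, 3633 at day 5, 3193 at day 7, 3041 at day 10 and then 3615 at day 14. Set against day 14, the calls were 1.46 times as many in DE, 1.52 times in NE and 1.07 times in H9, and day 14 had 1.31 times the calls of naive cells. Calls over all distances were also more in DE and NE. Short contacts were 18.1% of the same-chromosome calls in DE (exact 95% interval 17.6 to 18.5), 17.0% in NE (16.6 to 17.4) and 16.6% in H9 (16.1 to 17.1). In day 14 cells they were 17.9% (17.4 to 18.5) and in naive cells 15.2% (14.7 to 15.7), the lowest share of the 10 conditions. The intervals cover counting error only.

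As a share of the 28350 short contacts, DE called 18.6%, NE 19.4% and H9 13.7%, where the same rule over all 179907 same-chromosome contacts called 16.2%, 17.9% and 13%. The share was 9.71% in naive cells, 9.95% at day 1, 13.4% at day 3 and 12.8% at day 5, beside 10.1%, 10.1%, 12.4% and 11.7% over all distances. At day 7 it was 11.3%, at day 10 10.7% and at day 14 12.8%, beside 10.3%, 10.3% and 11.2%. Short contacts therefore stood slightly below the share over all distances in naive and day 1 cells and above it in the other 8 conditions.

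**Figure D1:**
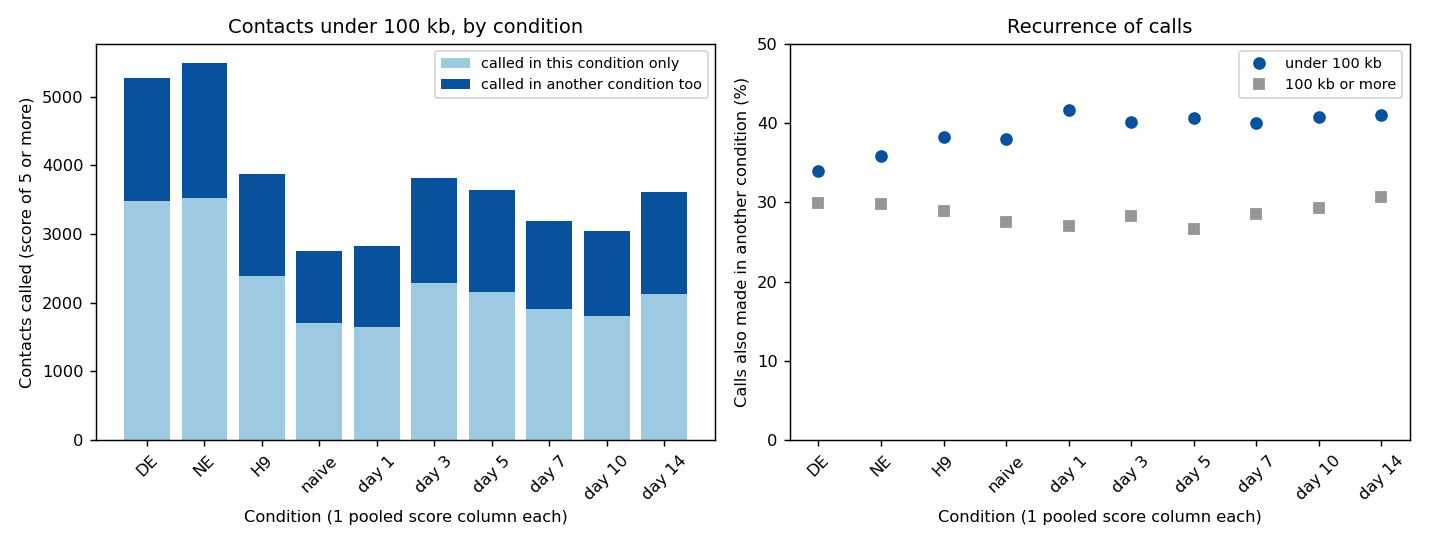
Left, called contacts under 100 kb (score of 5 or more) in each condition, split into those called there alone and those called in another condition too. Right, the percent of calls also made in another condition, for contacts under 100 kb and for longer ones; short contacts lie above longer ones in 10 of 10 conditions.

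Single contacts were seldom shared between 2 conditions. Day 14 and naive cells had 278 short contacts in common, with 3337 called at day 14 alone of the pair (11.8% of the short contacts, beside 10.5% of all same-chromosome contacts) and 2474 in naive cells alone (8.73%, beside 9.4%). H9 and day 14 shared 435, with 3439 in H9 alone (12.1%, beside 12%) and 3180 at day 14 alone (11.2%, beside 10.2%). The number shared was thus a small part of either list in both pairs. Sharing was low over all distances too. There, 18942 of the 20174 day 14 calls were not made in naive cells and 18437 not in H9. DE and day 14 shared 448, with 4822 in DE alone (17.0%, beside 15.1%) and 3167 at day 14 alone (11.2%, beside 10.1%). NE and day 14 shared 511, with 4979 in NE alone (17.6%, beside 16.7%) and 3104 at day 14 alone (10.9%, beside 9.95%). Of the calls of DE, 8.50% were also made at day 14, and of the calls of NE 9.31%. Over all distances, 27143 of the 29178 DE calls and 30007 of the 32283 NE calls were not made at day 14. Likewise, 25470 of the 29178 DE calls were not made in NE. DE and NE shared 750 contacts, 14.2% of the DE calls and 13.7% of the NE calls, with 4520 in DE alone (15.9%, beside 14.2%) and 4740 in NE alone (16.7%, beside 15.9%). The comparisons with day 14 share that column.

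Naive cells had the fewest contacts between 10 and 40 kb, and also the fewest short calls of all 10 conditions. At distances of 10 to 20 kb there were 231 calls in DE, 228 in NE and 202 in H9, and 44 in naive cells, 63 at day 1, 93 at day 3, 106 at day 5, 89 at day 7, 94 at day 10 and then 113 at day 14. Calls under 50 kb were 31.8% of the short calls in DE, 30.9% in NE, 32.8% in H9 and 30.2% at day 14, against 23.9% in naive cells, whose share was the lowest of all 10 conditions. Day 1 with 25.5% and day 10 with 26.2% came close to naive cells. Calls under 10 kb were 119 in DE (2.26% of its short calls), 196 in NE (3.57%), 167 in H9 (4.31%) and 168 at day 14 (4.65%), against 77 in naive cells (2.80%). In this nearest class the share was lowest in DE. The 847 contacts under 10 kb were also the most recurrent distance class, with 28.3% called in 2 or more conditions, whereas the 10 kb classes beyond held 15.9 to 19.6%.

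**Figure D2:**
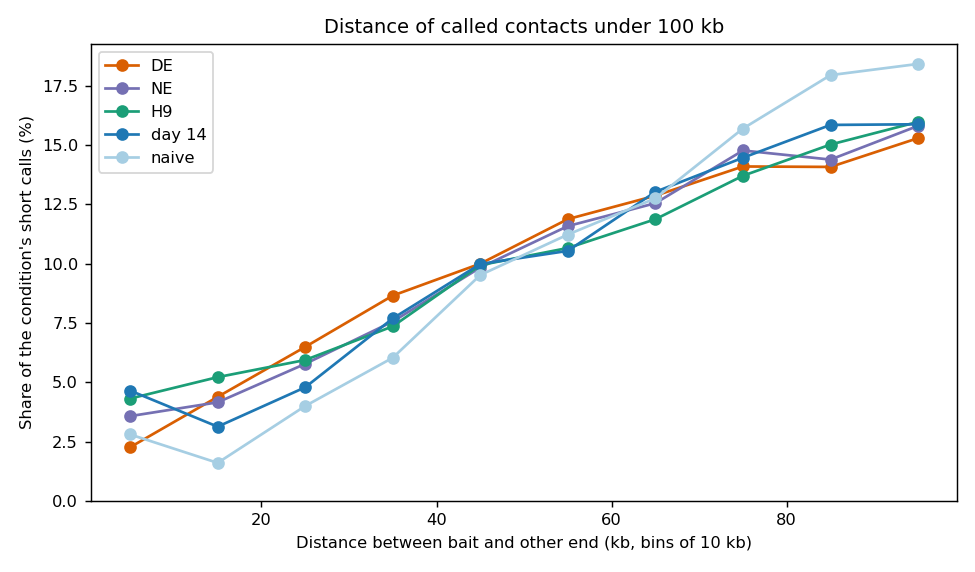
Share of the short calls of DE, NE, H9, day 14 and naive cells in bins of 10 kb of distance (midpoints on the horizontal axis). Of the conditions drawn, naive cells lie lowest between 10 and 40 kb and highest beyond 70 kb. The 10 to 20 kb bin holds 231 calls in DE, 228 in NE, 202 in H9, 113 at day 14 and 44 in naive cells.

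Other ends called by more than 1 bait were also fewest in naive cells. The share of short calls whose other end was called in the same condition by another bait was 22.9% in DE, 25.3% in NE, 26.7% in H9 and 23.6% at day 14, against 13.0% in naive cells. It was 16.8% at day 1, 22.8% at day 3, 20.3% at day 5, 19.3% at day 7 and then 18.7% at day 10. Baits with 5 or more short calls numbered 94 in DE, 126 in NE, 67 in H9 and 53 at day 14, against 29 in naive cells, with 27 at day 1, 23 at day 7 and 28 at day 10 lower still. Naive cells also had the fewest short calls (2752, against 5490 in NE), and neither measure was recomputed with equal numbers of calls. Neighbouring baits can reach the same other end, so such calls are not independent.

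Compared with contacts of 100 kb or more, short contacts recurred more often, had fewer very high scores and met gene ends more often. Of all short contacts, 5317 (18.8%, exact 95% interval 18.3 to 19.2) were called in 2 or more conditions, against 13.4% (13.2 to 13.6) of the 151557 longer ones, beside 14.2% over both. Averaged over the 10 conditions, 39.0 ± 2.49% of the short calls were also made in another condition, against 28.7 ± 1.31% of the longer calls (SD over 10 conditions). The difference of 10.4 percentage points was positive in 10 of 10 conditions, with an exact two-sided sign-flip permutation p of 0.00195 (0.00195 after Benjamini-Hochberg adjustment over 3 measures), the smallest p this test can give. Calls with a score of 10 or more were 1.64 ± 0.269% of short calls and 2.27 ± 0.550% of longer calls, lower for short contacts in 10 of 10 conditions (difference -0.637, exact permutation p of 0.00195, adjusted 0.00195). A protein-coding gene end lay at the other end, within 1 kb of it, in 17.1 ± 2.07% of short calls and 11.1 ± 0.660% of longer calls, higher for short contacts in 10 of 10 conditions (difference 6.05, exact permutation p of 0.00195, adjusted 0.00195). Conditions share contacts and 9 of them share a cell line, so they are not independent and these p-values are too small.

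At a score of 5 or more, most short contacts stood in 1 condition. There were 23033 called in 1 condition only (81.2%, beside 86.6% of the longer ones). Called in 5 or more were 478, in 8 or more 79, in 9 conditions 23 and in all 10 15. The median score of the calls was 5.64 at day 10, the lowest, to 5.77 in NE, the highest, close to the threshold. At a score of 3 or more, 70.0% of the same contacts were called in 2 or more conditions. Chromosome 12 carried 6 of the 15 in all conditions and 13 of the 38 in 9 or 10 conditions. This chromosome had 5.42% of the baits and 8.45% of the short contacts, and 8.85 to 11.2% of the short calls of a condition. Chromosome 17 had 5.18% of the baits and 7.62% of the short contacts, and chromosome 1 had 9.66% and 12.2%.

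The contact at RMND5B and NHP2 on chromosome 5 was among the strongest that no condition lacked. Its bait at chr5:178076219-178076747 lies in no protein-coding gene, and its other end at chr5:178144800-178150123, 70979 bp away, holds, within 1 kb, the facing ends of RMND5B, a subunit of a ubiquitin ligase complex, and NHP2, a protein of the snoRNPs that guide pseudouridylation and of telomerase. The score was 8.03 in DE, 17.7 in NE, 7.95 in H9, 13.4 in naive cells, 14.5 at day 1, 5.92 at day 3, 11.9 at day 5, 13.1 at day 7, 10.5 at day 10 and then 19.0 at day 14. The same bait was called in 9 conditions each with the neighbouring other ends on either side, chr5:178139786-178144799 within RMND5B and chr5:178150124-178155472. The second of these holds the start of NHP2, the promoter printed above. The calls of this bait thus ran over adjoining fragments at the same place.

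At the AXL locus on chromosome 19 a bait lay between the ends of AXL, a receptor tyrosine kinase, and HNRNPUL1, an RNA-binding protein. Its contact, 58003 bp away at an end of CYP2S1, a cytochrome P450, scored 12.1 in DE, 12.5 in NE, 8.64 in H9, 5.67 in naive cells, 5.38 at day 1, 9.81 at day 3, 20.9 at day 5, 9.95 at day 7, 10.3 at day 10 and then 11.6 at day 14. On chromosome 1 a bait in no protein-coding gene met an other end within SSBP3, a binding partner of LDB1 complexes, at chr1:54408820-54413933. It scored 18.2 in DE, 12.4 in NE, 6.55 in H9, 6.21 in naive cells, 12.7 at day 1, 5.37 at day 3, 7.99 at day 5, 6.85 at day 7, 5.69 at day 10 and then 10.3 at day 14. A start of SSBP3, at position 54413490, lies in that other end, which 4 short contacts reached with 20 calls between them. Both contacts stayed above the threshold throughout, and the condition with the highest score differed between them.

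On chromosome 12, 4 of the 38 contacts in 9 or 10 conditions lay in the stretch of NFE2, ZNF385A, ITGA5 and PDE1B. A bait in NCKAP1L, a blood-cell subunit of the WAVE actin regulator, met the ends of PDE1B, a calmodulin-dependent phosphodiesterase, and PPP1R1A, an inhibitor subunit of protein phosphatase, 53221 bp away. That contact scored 6.07 in DE, 5.12 in NE, 5.81 in H9, 6.52 in naive cells, 10.5 at day 1, 11.7 at day 3, 14.9 at day 5, 8.99 at day 7, 9.81 at day 10 and then 12.1 at day 14. It was thus lower in the differentiated cells and H9 than at any of the 7 HNES1 stages. A bait at chr12:54442157-54442789 met an other end within ITGA5, the fibronectin receptor subunit, with scores of 5.33 to 13.9 in the 10 conditions, and that of ZNF385A met an end of NFE2 in 9 conditions with scores of 3.39 to 13.0. At a lower coordinate than the HOXC cluster, the other end chr12:53697974-53703193 was reached by a bait in all 10 conditions with scores of 5.66 to 15.7 and by 2 neighbouring baits in 9 conditions each. At chr12:57757000-57762906, the other end of a contact in all 10 conditions, lie ends of MARCHF9, a ubiquitin ligase, and CYP27B1, the enzyme that makes active vitamin D. Its bait lies 4618 bp away within CYP27B1. The other end overlaps both genes, so which of them the contact meets cannot be told.

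GIMAP2, a GTPase of lymphocytes, had a gene end at both ends of a contact called in all 10 conditions, with scores of 5.22 to 8.56. Its start lies in the bait and the other end of the gene in the interval 8683 bp away. Over all short contacts, 221 had an end of the same gene at both ends. The highest scores among the most recurrent contacts came without any protein-coding gene. A bait at chr4:49511067-49511391 scored 10.1 to 21.0 in the 10 conditions with an other end 5003 bp away, at chr4:49512195-49520269. The neighbouring bait scored 3.59 to 33.4 with that same other end and was called in 9 conditions. The remaining contacts called in all conditions were on chromosomes 9, 10, 12, 8 and 6, the last with its other end in SCUBE3, which encodes a secreted protein.

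**Figure D3:**
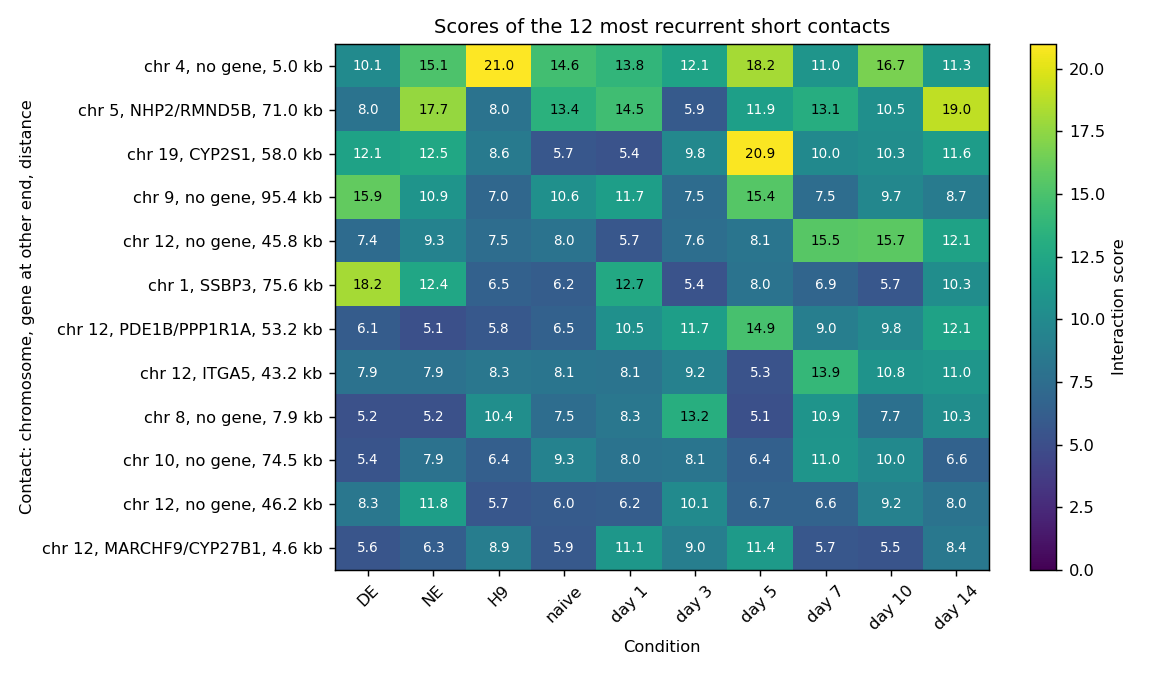
Interaction scores of 12 of the 15 short contacts called in all 10 conditions, those with the highest mean scores, ordered by mean score; the SCUBE3, GIMAP2 and second chromosome 12 contacts are not drawn. Each row is a contact with its chromosome, the gene at or around its other end and its distance, and each column a condition; every score lies above 5 and the highest are 21.0 on chromosome 4 and 20.9 at CYP2S1.

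Overlapping spans of short contacts joined into 4112 loci, of which 1374 held a single contact. The 10 loci with the most contacts held 2093 (7.38%), and 3 of them contain a HOX cluster together with neighbouring genes. The HOXC locus (chr12:53603105-54213264) had 353 contacts, the HOXB locus (chr17:48352907-48889308) 317 and the HOXA locus (chr7:26784961-27518024) 191. A gene end of the cluster lay at either end in 114 contacts for HOXC, 108 for HOXB and 118 for HOXA. In that order, such contacts gave 4, 3 and 2 calls in naive cells and 26, 31 and 43 at day 14. The counts below are for whole loci. The HOXC, HOXB and HOXA loci held 103, 92 and 83 baits, and the rest of the 10 loci held 33 to 84. The ranking is by number of contacts and was not adjusted for the number of baits. Calls in the HOXC locus were 86 in DE, 61 in NE, 104 in H9, 34 in naive cells, 38 at day 1, 50 at day 3, 65 at day 5, 45 at day 7, 52 at day 10 and then 83 at day 14. The HOXB locus had 66 in DE (1.25% of its short calls), 50 in NE (0.911%), 86 in H9 (2.22%), 68 at day 14 (1.88%) and 32 in naive cells (1.16%). Those of the HOXA locus were 18 in DE, 13 in NE, 66 in H9, 5 in naive cells, 12 at day 1, 36 at day 3, 44 at day 5, 33 at day 7, 22 at day 10 and then 65 at day 14. As a share of all short calls of the condition, the HOXA locus had 0.342% in DE, 0.237% in NE, 1.70% in H9, 1.80% at day 14 and 0.182% in naive cells. The HOXC locus had 1.63% in DE, 1.11% in NE, 2.68% in H9, 2.30% at day 14 and 1.24% in naive cells. In all 3 HOX loci the share was lower in DE and in NE than at day 14. In the HOXC and HOXB loci the share in NE was also below that in naive cells.

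DE and NE had the most short calls over all loci, so counts in the 7 other loci are given with their share of the condition's short calls. The stretch next to HOXC that holds CBX5, NFE2, ZNF385A and PDE1B had 54 calls in DE (1.02%), 60 in NE (1.09%), 45 in H9 (1.16%), 53 at day 14 (1.47%) and 33 in naive cells (1.20%). A chromosome 1 locus with RHBG, an ammonium transporter, BCAN, a brain proteoglycan, and NES, the intermediate filament of neural progenitors, had 84 in DE (1.59%), 57 in NE (1.04%), 33 in H9 (0.852%), 41 at day 14 (1.13%) and 16 in naive cells (0.581%). The locus of DMBX1, a homeobox gene of the developing brain, had 57 in DE (1.08%), 76 in NE (1.38%), 49 in H9 (1.26%), 39 at day 14 (1.08%) and 31 in naive cells (1.13%), with 1.60% at day 1. By share, DE was highest of the 10 conditions at RHBG and NES, day 1 was highest at DMBX1, and DE and NE were lowest in the stretch next to HOXC. At EN2, a homeobox gene of the midbrain and hindbrain, there were 26 in DE (0.493%), 20 in NE (0.364%), 53 in H9 (1.37%), 24 at day 14 (0.664%) and 3 in naive cells (0.109%). The GATA4 locus, named for a transcription factor of endoderm and heart, had 33 in DE (0.626%), 33 in NE (0.601%), 24 in H9 (0.620%), 10 at day 14 (0.277%) and 5 in naive cells (0.182%). H9 thus stood highest at EN2, and DE, NE and H9 stood close together above day 14 at GATA4. The WNT10A and IHH locus had 36 in DE (0.683%), 41 in NE (0.747%), 30 in H9 (0.774%), 35 at day 14 (0.968%) and 20 in naive cells (0.727%). In the locus of TBX21 there were 40 in DE (0.759%), 26 in NE (0.474%), 27 in H9 (0.697%), 21 at day 14 (0.581%) and 13 in naive cells (0.472%).

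**Figure D4:**
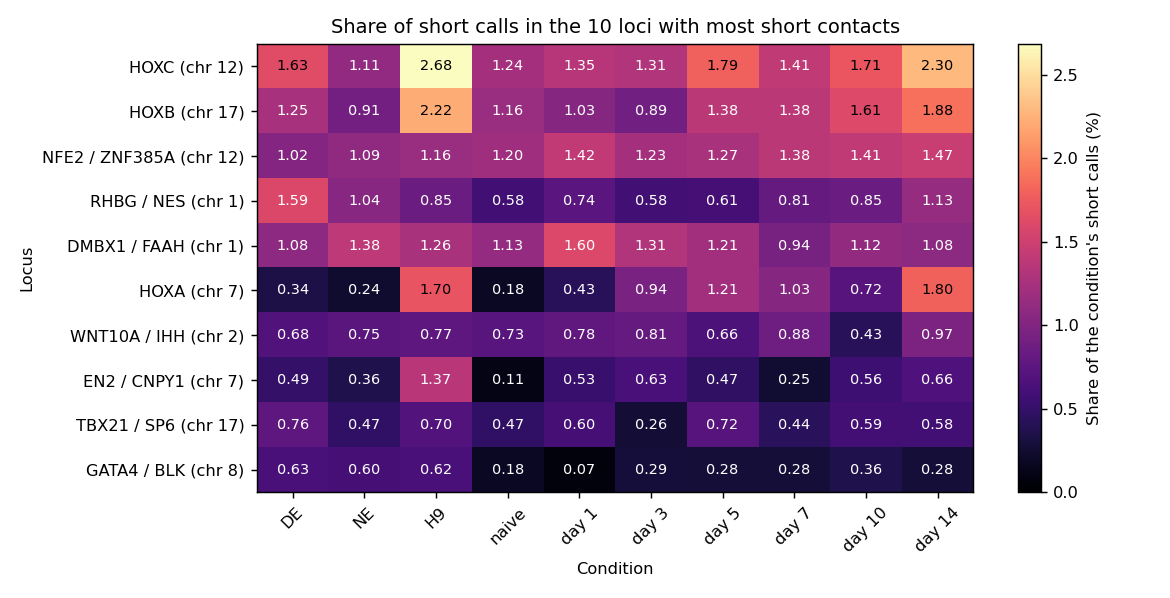
Short calls of each of the 10 loci with the most short contacts, as a percent of all short calls of the condition, 1 row per locus and 1 column per condition. The HOXA row holds 0.34% in DE and 0.24% in NE beside 1.80% at day 14; the RHBG and NES row is highest in DE (1.59%) and the DMBX1 row at day 1 (1.60%).

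Genes were linked where an annotated gene end lay in an interval widened by 1 kb. At the other end 2791 genes were linked through 4534 contacts (16.0%), and at the bait 2246 genes through 6894 contacts (24.3%). Both ends held a gene in 1526 contacts and neither end did in 18448. By outer gene ends, the gene with the most calls at the other end was NFE2, a transcription factor of red cells and platelets, with 70 calls from 26 contacts, which were 8 in DE, 12 in NE, 8 in H9, 9 at day 14 and 4 in naive cells. HOXA3, HOXC10 and RHBG followed with 51 calls each and HOXA2 with 44. The counts of HOXA3 and HOXA2 overlap. The other end chr7:27101770-27106229 lies within HOXA2 and is linked to HOXA3, whose end is at 27107010, only through the 1 kb margin. At the bait MUC3A, a membrane mucin, had 99 calls, ZNF385A, a zinc finger protein, had 94 and GIMAP2 had 76. NEUROG1, a proneural transcription factor, had 55 and ANKRD34A and NPR1 had 44 each. Calls at a MUC3A bait were 6 in DE, 7 in NE, 9 in H9, 10 at day 14 and 6 in naive cells, whereas NEUROG1 had 7 in DE, 8 in NE, 6 in H9, 9 at day 14 and none in naive cells.

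By outer gene ends, HOX genes were met by short contacts most often in H9 and at day 14, and seldom in naive cells. Other ends inside a HOX gene with no outer gene end within 1 kb are left out. An example is the other end with the inner start of HOXA10 (23 contacts, 70 calls). The split of those 70 calls by condition was not counted. Short calls with a HOX gene at the other end were 38 in DE, 24 in NE, 110 in H9, 7 in naive cells, 14 at day 1, 31 at day 3, 48 at day 5, 34 at day 7, 26 at day 10 and then 75 at day 14. They came through 256 distinct contacts of 119 baits, and day 14 had 55 of these baits and 28 of the other ends, against 7 and 5 in naive cells. As a share of the short calls of a condition they were 0.721% in DE, 0.437% in NE, 2.84% in H9 and 2.07% at day 14, against 0.254% in naive cells. Among contacts of 100 kb or more the HOX calls were 55 in DE, 56 in NE, 73 in H9, 28 at day 14 and 26 in naive cells, or 0.230%, 0.209%, 0.375%, 0.169% and 0.169% of the longer calls. The gap between day 14 and naive cells was thus seen among the short calls, and by count longer HOX calls were nearly equal in both. No test of that difference between distances was run. DE and NE had fewer short HOX calls than day 14 and more longer ones. Without chromosome 12, which carries HOXC, the short HOX calls were 23 in DE, 10 in NE, 74 in H9, 57 at day 14 and 3 in naive cells, so that NE had 0.175 times the calls of day 14 (0.320 with it) and day 14 had 19 times those of naive cells (10.7 with it).

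The order over the stages was not steady, since the count fell back after day 5 before its highest value at day 14. At a bait, HOX genes had 19 calls in DE, 11 in NE, 67 in H9, 66 at day 14 and 5 in naive cells, and 83 contacts had a HOX gene at both ends. Calls with both ends in HOX genes were 8 in DE, 4 in NE, 34 in H9, 25 at day 14 and 3 in naive cells.

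By outer gene ends, each cluster had more short calls at day 14 than in naive cells, though few in some. With a HOXA gene at the other end there were 5 calls in DE, 3 in NE, 27 in H9, 25 at day 14 and 2 in naive cells. HOXB had 18 in DE, 7 in NE, 42 in H9, 25 at day 14 and 1 in naive cells. HOXC had 15 in DE, 14 in NE, 36 in H9, 18 at day 14 and 4 in naive cells. HOXD had 5 in H9 and 7 at day 14 and none in DE, NE or naive cells, also when the bait was counted. By count, the largest difference between H9 and day 14 lay in HOXB and HOXC, while HOXA stood about level.

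**Figure D5:**
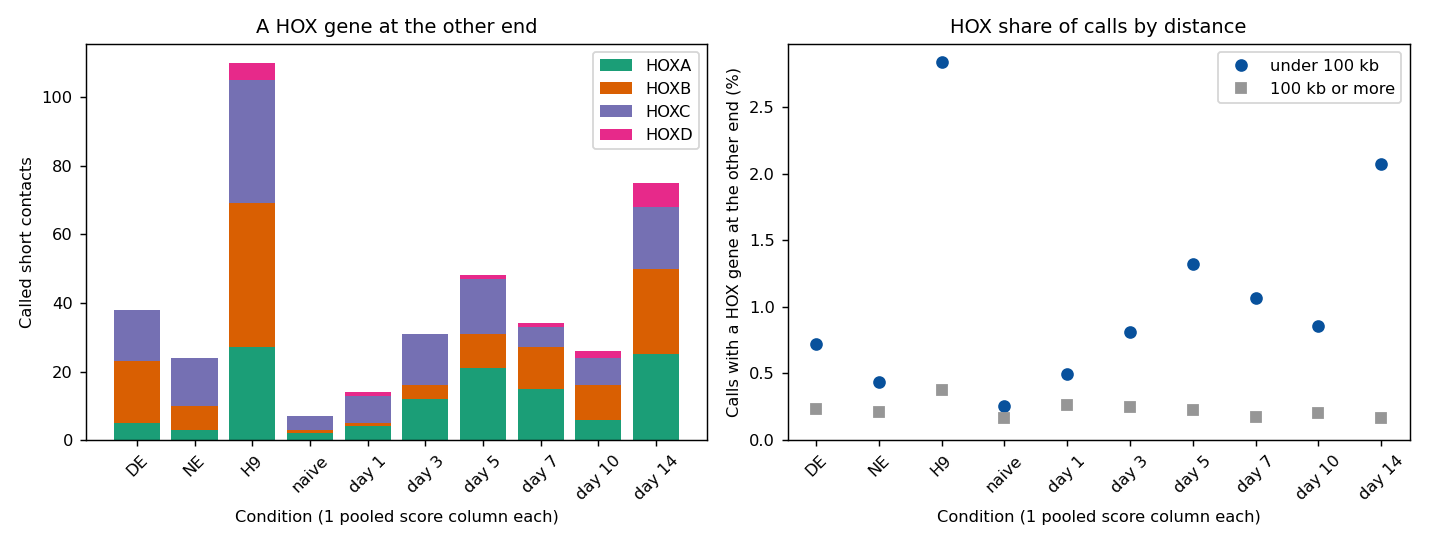
Left, called short contacts with an outer end of a HOX gene at the other end, stacked by cluster, in each condition. Right, these calls as a percent of all calls of the condition, for contacts under 100 kb and for longer ones; short contacts reach 2.84% in H9 and 2.07% at day 14, against 0.254% in naive cells, while longer ones stay at 0.375% or below.

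Of the 39 HOX genes, 34 were linked to the other end of a short contact. Of these, 29 had more short calls at day 14 than in naive cells and none had fewer, where 20.6% of all 2791 linked genes had more and 10.9% fewer. The median difference, day 14 minus naive, was 3 calls per HOX gene and 0 over all genes. H9 against day 14 gave more for 21 HOX genes and fewer for 10, beside 18% and 17.3% of all genes. DE gave more than day 14 for 2 and fewer for 23, beside 20.4% and 17.4%, with a median difference of -2 calls, and NE more for 1 and fewer for 26, beside 22.9% and 16.9%, also with a median of -2. Over all genes the medians of these differences were 0. Neighbouring HOX genes share other ends and baits, so their counts are not independent, and the comparisons share the day 14 column.

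HOXA3 had 2 calls in DE, 1 in NE, 11 in H9, 1 in naive cells, 3 at day 1, 6 at day 3, 8 at day 5, 7 at day 7, 3 at day 10 and then 9 at day 14. The other end with the start of HOXA2 (19 contacts, 43 calls) also counts towards HOXA3, through the 1 kb margin. HOXA10 had 2 in DE, 1 in NE, 8 in H9, none in naive cells, 1 at day 1, 5 at day 3, 8 at day 5, 5 at day 7, 3 at day 10 and then 10 at day 14. Its inner start, the window printed above, lay in the other end of 23 contacts with 70 calls. The gene's own count and the HOX totals leave these out because only outer gene ends were linked. The start of HOXA2 lay in the other end of 19 contacts with 43 calls, and HOXA2 had 2 in DE, 1 in NE, 7 in H9, 8 at day 14 and 1 in naive cells. HOXC10, a posterior gene, had 4 in DE, 4 in NE, 13 in H9, 6 at day 14 and 3 in naive cells. HOXA9, whose start lies in the baits of 10 contacts, had no bait call in DE or NE, 7 in H9, 9 at day 14 and 1 in naive cells. These genes had their highest counts in H9 or at day 14.

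There were 2 HOX contacts called in 7 conditions, the most for HOX genes at the other end. The first joined a bait in HOXC4, HOXC5 and HOXC6 with an end of HOXC10, 40267 bp away. It scored 3.04 in DE, 7.08 in NE, 10.6 in H9, 5.47 in naive cells, 4.12 at day 1, 6.58 at day 3, 8.36 at day 5, 3.78 at day 7, 6.0 at day 10 and then 8.69 at day 14. In the other, a bait in HOXB3 met an interval with ends of HOXB3 and HOXB5, 36625 bp away, with scores of 5.99 in DE, 9.51 in NE, 8.51 in H9, 7.89 at day 14 and 2.66 in naive cells. NE, which had few HOX calls in all, thus scored highest in this contact.

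Other developmental transcription factors also had their highest other-end counts in H9 and at day 14. The list of 123 such genes had 9 other-end calls in DE (0.171% of its short calls), 20 in NE (0.364%), 43 in H9 (1.11%), 27 at day 14 (0.747%) and 3 in naive cells (0.109%). Genes of any kind stood at the other end in 14.9% of the short calls in DE, 16.4% in NE, 20.7% in H9, 20.2% at day 14 and 14.9% in naive cells. PDX1, the pancreas homeobox gene, had 26 calls over all conditions, EVX1, a homeobox gene beside HOXA, had 17 and DMBX1 had 12. EVX1 had none in DE, NE or naive cells, 4 in H9 and 7 at day 14. PDX1 had 1 in DE, 3 in NE, 5 in H9, 4 at day 14 and none in naive cells. At the bait the list had 29 in DE (0.550%), 37 in NE (0.674%), 33 in H9 (0.852%), 23 at day 14 (0.636%) and 15 in naive cells (0.545%), with DMBX1 (19 calls), TLX2 (18) and OLIG2 (17) in front.

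Genes of definitive endoderm were met by the bait more than by the other end. Of 19 genes, 7 had a short contact at the bait (36.8%, beside 11.3% of all protein-coding genes), with 13 calls in DE, 14 in NE, 6 in H9, 1 at day 14 and 2 in naive cells. These were 0.247% of the short calls in DE, 0.255% in NE, 0.155% in H9, 0.0277% at day 14 and 0.0727% in naive cells, while genes of any kind stood at the bait in 22.9%, 24.2%, 24.4%, 26.0% and 24.0%. GATA4 gave 29 of the calls over all conditions, with 8 in DE, 8 in NE, 6 in H9, 1 at day 14 and none in naive cells. CER1, a secreted antagonist of nodal and BMP signals, had 4 in DE, 3 in NE, none in H9 or at day 14 and 1 in naive cells, and FOXA2, an endoderm and floor plate factor, had 2 in NE and none in DE. At the other end the endoderm list had 6 calls in all. Neuroectoderm genes at the bait, 15 of 33 (45.5%, beside the same 11.3%), had 8 in DE (0.152%), 11 in NE (0.200%), 11 in H9 (0.284%), 14 at day 14 (0.387%) and 2 in naive cells (0.0727%), led by NEUROG1. At the other end they had 2 in DE, 2 in NE, 12 in H9, 3 at day 14 and 4 in naive cells, led by OTX2, a homeobox gene of epiblast and anterior brain, with 19 calls, EN2 with 13 and NES with 4. Neither lineage list was thus higher in its own condition than in the other by more than 3 calls. The shares of 36.8% and 45.5% of genes at the bait also depend on where poised enhancers were captured. Genes with any bait were not counted, so bait placement and short contacts cannot be told apart in these shares.

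Of the pluripotency lists, 1 of 14 naive, 3 of 13 primed and 2 of 9 general genes had a short contact at the other end, where 14.0% of all protein-coding genes had one. OTX2, which is also in the primed list, gave 19 of that list's 24 calls. At the bait, FGF4 was the only one of 14 naive pluripotency genes (6 calls) and FZD7, a WNT receptor, the only one of 13 primed ones. FZD7 baits had 10 calls in DE, 2 in NE, 7 in H9, 2 at day 14 and none in naive cells. POU5F1 had 1 call at the other end, in naive cells, and PRDM14, a pluripotency regulator, had 13 in all. Mesoderm genes had 24 calls at the other end, led by PAX2 (12), a kidney and midbrain factor, and 40 at the bait, led by PAX8 (11) and MYOD1 (9). Neural crest genes had 24 at the other end, led by PAX7 (8), and 11 at the bait. Of 42 signalling genes, FZD10 had the most calls at either end (10 and 13), and of 23 Polycomb genes CBX2 had 12 at the bait. The 19 housekeeping genes had 1 call at the other end and none at the bait.

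The contacts that differed most in score between 2 conditions were mostly called in few conditions. Such contacts are extremes of single pooled values, and values of 0 mean that no score above 0 was listed. A contact of CER1 with an interval within FREM1, 23053 bp away, scored 8.58 in DE, 11.8 in NE, 0.736 in H9, 0 at day 14 and 0.356 in naive cells. A BTN1A1 bait met an end of BTN3A1, both butyrophilin genes, with 13.0 in DE, 3.94 in NE and 0 at day 14. The CER1 contact was thus called in both differentiated cell types and the BTN1A1 contact in DE alone. A GRIN2C bait, of a glutamate receptor subunit, met an interval within NHERF1 with 12.2 in NE, 0.746 in DE and 0 at day 14.

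In the other direction, a HOXD3 bait met an interval within HOXD11 with 3.01 in DE, 0 in NE, 5.79 in H9, 11.7 at day 14 and 0.581 in naive cells. A bait of ETV2, a factor of blood and vessel formation, met ends of GAPDHS, TMEM147 and ATP4A with 3.73 in DE, 3.31 in NE, 0 in H9, 9.92 at day 14 and 2.85 in naive cells. HOXB3 and HOXB9 were joined with a score of 9.42 in H9 against 0 at day 14. These 3 contacts were called in at most 3 conditions each. A contact within BCR, a regulator of small GTPases, had 11.1 at day 14 and 0 in naive cells. A bait within MXI1, a partner of MAX, had a score of 0 at day 14 and 12.7 in naive cells, yet 11.4 in DE and 5.51 in H9 and above 2 in every condition but day 14. A contact on chromosome 1 near position 125183675 scored 0 in DE and NE, 14.2 at day 14 and 8.15 in naive cells, and it was at 0 at day 5 too.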

How the data were processed

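The 20 libraries were made by Capture Hi-C of poised enhancers, and the authors deposited 1 interaction score per contact and condition, a CHiCAGO score per the labels, pooled over 2 libraries. The authors also deposited the signed distance in bp per contact. Coordinates are on GRCh38 per the submitters' processing notes. The aligner, the filters, the binning and the read depth, all of which can change the number of calls, are not given in the sources used here.

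Contacts were called at a score of 5 or more. Short contacts were same-chromosome contacts with an unbaited other end under 100 kb, and longer ones lay at 100 kb or more. Protein-coding genes (19948, with 104 readthrough genes left out) of the RefSeq table were linked where an annotated end lay within 1 kb of an interval. Overlapping spans were joined into loci. Short and longer contacts were compared with a two-sided exact sign-flip permutation test over 10 conditions (1024 sign patterns), adjusted by Benjamini-Hochberg over 3 measures. The error rate of the test was tried on simulated differences that were independent between conditions. That trial does not cover the sharing of contacts between the real conditions. Intervals are exact binomial (Clopper-Pearson).

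The members and the gene lists were chosen with earlier results of these data known. Named were the 12 most recurrent contacts (ties by mean score), the 3 largest gains and losses in asinh(score) per comparison, the 10 largest loci, the 3 leading genes per list and the 5 leading genes per end; the text gives part of these, and some other genes and contacts (such as EVX1, PDE1B, POU5F1 or those in 9 conditions) were chosen after their values were seen. Alternatives were score thresholds of 3 and 10, a 50 kb limit, equal numbers of calls, joined other ends, baited other ends counted too, other gene margins, longer contacts of 100 to 500 kb and leaving out chromosome 12, the last 2 chosen after seeing the data. Python 3.11.15, pandas 2.3.3, numpy 2.4.6, scipy 1.17.1 and matplotlib 3.10.9 were used.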

Additional observations from a re-analysis of the deposited data

How the results depend on the processing

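Of 97 recomputed values, 72 stayed within their error, their side of the threshold or, for total calls, a fixed ratio of the main total. The other 25 moved. None changed direction against day 14 or naive cells except where a ratio came to 1. The 3 comparisons of short with longer contacts kept their direction and side of the threshold under every alternative that gave a value. At a score of 3 or more there were 79923 short calls over the 10 conditions (37502 at 5), 70.0% of contacts recurred, and the call ratios were 1.28 (DE to day 14), 1.32 (NE to day 14), 1.02 (H9 to day 14) and 1.22 (day 14 to naive), with HOX calls 4.33 times as many at day 14 as in naive cells. At 10 or more there were 628 calls and 21.9% recurred, with ratios of 1.23 (DE), 1.78 (NE) and 1.22 (H9) to day 14 and 1.68 (day 14 to naive). HOX calls were then 1 in DE, 1 in NE, 2 in H9 and 1 at day 14, ratios of 1, 1 and 2 to day 14, so the HOX pattern cannot be read at that threshold. Under 50 kb there were 10842 calls, with ratios of 1.53 (DE) and 1.16 (H9) to day 14 and 1.66 (day 14 to naive). With equal numbers of calls per condition, 18.1% recurred and HOX calls in DE were 0.313 times those at day 14. Joining other ends within 5 kb gave 24.1% recurring, and leaving out chromosome 12 gave 18.0% and HOX ratios of 0.175 for NE to day 14 (0.320 with it) and 19 for day 14 to naive (10.7 with it). The cause of these shifts was not tested.

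Equal numbers of calls give no ratio of calls, and at 10 or more naive cells had no HOX call, so these ratios were not computed. No paired analysis was possible because the deposited matrix holds 1 pooled column per condition. The matrix lists only contacts that reached 5 somewhere, so the threshold of 3 counts no contact below that everywhere. Unknown depth limits every count of calls.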
